A study of Mus musculus with 8 samples.

Results

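The TRBV13 segments of the mouse T cell receptor beta chain, serologically known as the Vbeta8 family, were followed in T cells of the brain. Members were taken by name from the productive TRB contigs of single cells, where a contig is 1 assembled receptor transcript of 1 cell. The labels TRBV13-1, TRBV13-2, TRBV13-3 and the joined label TRBV12-2+TRBV13-2 were kept, and the joined label was counted with TRBV13-2 and also apart. They held 1720 of 6795 TRB contigs, 1246 of 5025 cells with a usable receptor, and 960 of 3376 clones.

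CD45+ immune cells were sorted from the brain parenchyma of C57BL/6 mice, and their receptor transcripts were sequenced in 4 libraries. 2 libraries came from 5xFAD mice, an Alzheimer's disease model with transgenes for mutant human amyloid precursor protein and presenilin driven in neurons by the Thy1 promoter. The other 2 came from 5xFAD;Cxcr6-/- mice, called knockout libraries here, which carry the same transgenes and lack Cxcr6, a chemokine receptor of resident and natural killer T cells, so that every group had the amyloid transgenes. The labels give no age or sex and do not say whether a library was 1 mouse or a pool, so the spread between libraries may be technical and the p-values measure only that spread. Cxcr6 itself is not measured by receptor contigs and the knockout could not be checked in them.

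In a developing T cell the beta chain gene is assembled from 1 V, 1 D and 1 J segment, with bases trimmed and added at the joints. The joint encodes CDR3, the loop that lies over the presented peptide or lipid, while CDR1 and CDR2 come from the V segment alone. Vbeta8 chains are best known as partners of the invariant alpha chain of natural killer T (iNKT) cells, which in mice is built from TRAV11 and TRAJ18 and reads lipid antigens held by CD1d. TRBV13-2, TRBV13-1 and TRBV13-3 correspond to the antibody-defined Vbeta8.2, Vbeta8.3 and Vbeta8.1 chains, and conventional CD4+ and CD8+ T cells use them as well.

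The germline ends of the V segments are shown because they write the first residues of CDR3. They run from the codon of the conserved cysteine to the last V base, read 5′ to 3′ from GENCODE vM21 transcripts of GRCm38, and the capital marks the 1 base that differs:
TRBV13-1: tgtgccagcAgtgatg
TRBV13-2: tgtgccagcGgtgatg
TRBV13-3: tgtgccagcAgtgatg
Counted from 1 at the first base of the cysteine codon, with TRBV13-2 first, the difference from either other member was G10A. TRBV13-1 and TRBV13-3 therefore begin CDR3 with the residues CASSD and TRBV13-2 with CASGD when the first 15 bases are retained.

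CDR1 and CDR2 are shown because they are the loops by which the members differ before any joining. Each sequence was the same in every contig of its member, read from the deposited contigs, with capitals at positions where the 3 members are not all alike:
TRBV13-1 CDR1: aataGccaCAacTaC
TRBV13-2 CDR1: aataAccaCAacAaC
TRBV13-3 CDR1: aataAccaTGacTaT
TRBV13-1 CDR2: tcatatgGTgctgGcaAc
TRBV13-2 CDR2: tcatatgGTgctgGcaGc
TRBV13-3 CDR2: tcatatgTCgctgAcaGc
They translated to NSHNY, NNHNN and NNHDY for CDR1 and to SYGAGN, SYGAGS and SYVADS for CDR2. Over the 270 V bases from framework 1 to framework 3, TRBV13-2 and TRBV13-3 shared 91.5%, TRBV13-1 and TRBV13-2 88.1%, and TRBV13-1 and TRBV13-3 84.8%. Framework 3 carried 21 of the 32 differences between TRBV13-1 and TRBV13-2, 26 of 41 between TRBV13-1 and TRBV13-3 and 11 of 23 between TRBV13-2 and TRBV13-3, and is shown with the same marking:
TRBV13-1 framework 3: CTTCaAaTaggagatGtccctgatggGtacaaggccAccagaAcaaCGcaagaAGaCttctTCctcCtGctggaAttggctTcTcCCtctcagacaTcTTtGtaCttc
TRBV13-2 framework 3: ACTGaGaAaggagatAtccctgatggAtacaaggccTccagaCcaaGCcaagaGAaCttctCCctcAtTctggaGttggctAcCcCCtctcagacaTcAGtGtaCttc
TRBV13-3 framework 3: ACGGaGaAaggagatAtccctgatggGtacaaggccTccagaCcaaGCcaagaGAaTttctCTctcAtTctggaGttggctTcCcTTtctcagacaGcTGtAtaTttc

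In the GENCODE vM21 annotation of GRCm38 the members lie on the plus strand of chromosome 6, each as a TR_V_gene of 2 exons. Trbv13-1 spans chr6:41116007-41116468, Trbv13-2 spans chr6:41121396-41121832 and Trbv13-3 spans chr6:41130147-41130585. Trbv12-2, whose name is part of the joined label, spans chr6:41118851-41119364, between Trbv13-1 and Trbv13-2. All 728 contigs with the joined label and all 102 contigs with the plain TRBV13-2 label had the same TRBV13-2 sequence from framework 1 to framework 3. The 2 labels differed in the contig outside the coding V, J and CDR3 regions, which had a median of 228 bases under the joined label and 199.5 under the plain one. Of 45 TRBV13-2 clones of 2 or more cells, 36 carried only the joined label, 1 only the plain label and 8 both, with 59 cells under the joined label and 9 under the plain one in those 8. The labels thus split single clones, and both were counted as TRBV13-2 below unless named apart.

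The libraries held 1527 and 1885 usable cells in 5xFAD and 567 and 1046 in the knockout libraries, where usable means 1 TRB chain and 1 or 2 TRA chains. Cells of 1 library with the same TRB and a shared TRA at the nucleotide level were taken as a clone, which gave 955, 1140, 452 and 829 clones from totals of 32169, 34772, 13460 and 22340 UMIs. An iNKT-like clone is defined by its chains alone, as TRAV11 or TRAV11D joined to TRAJ18, with no expression data behind it. There were 189 and 145 such clones in 5xFAD and 23 and 19 in the knockout libraries. The libraries shared 28 of 6686 barcodes, 12 of them with a TRBV13 chain, and in 0 of the 28 was the TRB CDR3 the same. Cells with 2 TRB chains were left out and no doublet caller was run. A second TRB accompanied between 6.83% and 8.48% of TRBV13 contigs, and between 6.48% and 17.9% of other TRB contigs.

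The first question was how much of the repertoire the family supplied and whether that differed with Cxcr6. Of all clones, TRBV13 chains formed 32.7% and 29.7% in 5xFAD, compared with 24.8% and 23.8% where Cxcr6 was deleted. The groups did not overlap, with means of 31.2% ± 2.07 and 24.3% ± 0.718 (SD, n = 2 libraries each), and the difference of -6.93 percentage points had a two-sided exact permutation p of 0.333. That p is the smallest that 2 libraries against 2 can give, so no such comparison here could pass 0.05. Any groups without overlap give it, and how many other segments separated the genotypes in this way was not counted.

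TRBV13-2 was the most used member in every library, with 18.3%, 14.7%, 13.3% and 11.2% of clones in 5xFAD libraries 1 and 2 and knockout libraries 1 and 2. TRBV13-1 held 8.06% and 7.54% in 5xFAD and 5.53% and 5.55% in the knockout libraries. TRBV13-3 held 6.28% and 7.46% against 5.97% and 7.0%, and its groups overlapped. TRBV13-1 and TRBV13-3, at 6.67% ± 1.32 and 6.68% ± 0.673 over the 4 libraries, did not differ beyond their spread, while the 14.4% ± 2.99 of TRBV13-2 stood above both. The joined label on its own accounted for 15.3%, 13.5%, 11.5% and 9.41% of clones and the plain label for 3.04%, 1.23%, 1.77% and 1.81%.

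A count model of clones per segment, fitted across every TRA and TRB gene segment by the quasi-likelihood method of edgeR, gave a log2 fold change of knockout over 5xFAD of -0.49 (SE 0.227) for TRBV13-1, -0.45 (SE 0.216) for TRBV13-2 and -0.066 (SE 0.223) for TRBV13-3. Their adjusted p-values were 0.486, 0.494 and 0.955, and 0 of the 3 members passed an adjusted p of 0.05. Of 151 segments tested 2 passed, which is 1.32%, with 13 at an unadjusted p under 0.05. Both were segments of the invariant alpha chain, TRAV11 at -2.18 and TRAJ18 at -1.65. The median over all 151 segments was 0.16.

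With the iNKT-like clones left out, the family held 23.1% and 23.7% of clones in 5xFAD and 22.4% and 22.8% in the knockout libraries. The gap narrowed to -0.804 percentage points, between means of 23.4% ± 0.432 and 22.6% ± 0.327 (exact permutation p = 0.333). TRBV13-2 changed order in this set, with 8.75% and 9.95% in 5xFAD and 11.7% and 10.2% in the knockout libraries. TRBV13-1 remained higher in 5xFAD, at 7.31% and 6.63% against 4.66% and 5.68%. The values of TRBV13-3 were 7.05% and 7.14% against 6.06% and 6.91%. Each member was thus without overlap between the genotypes in this set. How many other segments were so was not counted, and a genotype difference of TRBV13-1 was not shown. In the same edgeR model the log2 fold changes were -0.38 (SE 0.166), 0.19 (SE 0.130) and -0.10 (SE 0.147) for TRBV13-1, TRBV13-2 and TRBV13-3, with adjusted p-values of 0.922, 0.922 and 0.926. Of 149 segments 0 passed by edgeR's test (0%), with 7 at an unadjusted p under 0.05.

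Counted by cells in place of clones, the family held 26.9% and 23.1% in 5xFAD and 26.8% and 23.7% in the knockout libraries, with means of 25.0% and 25.3%. The order of the genotypes seen over clones was absent over all usable cells. Among cells that were not iNKT-like, the family held 255 of 1314 and 328 of 1727 cells in 5xFAD and 136 of 544 and 236 of 1027 in the knockout libraries, with mean shares of 19.2% and 24.0% and no overlap (exact permutation p = 0.333). In the same cells TRBV13-2 held 5.56% and 8.16% in 5xFAD against 12.7% and 10.9% in the knockout libraries, with means of 6.86% ± 1.84 and 11.8% ± 1.26. These groups did not overlap (exact permutation p = 0.333, the smallest possible), and the size of single clones enters such a share. The largest such TRBV13-2 clone held 12 of 69 cells in knockout library 1 and 17 of 112 in knockout library 2. Large clones of other TRBV lower these shares. The largest held 189 of 1059 and 68 of 1400 cells of other TRBV in 5xFAD libraries 1 and 2. In knockout libraries 1 and 2 it held 10 of 408 and 26 of 791. The shares without these clones were not tested. How many other TRBV segments separated the genotypes in these cells was not counted.

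**Figure D1:**
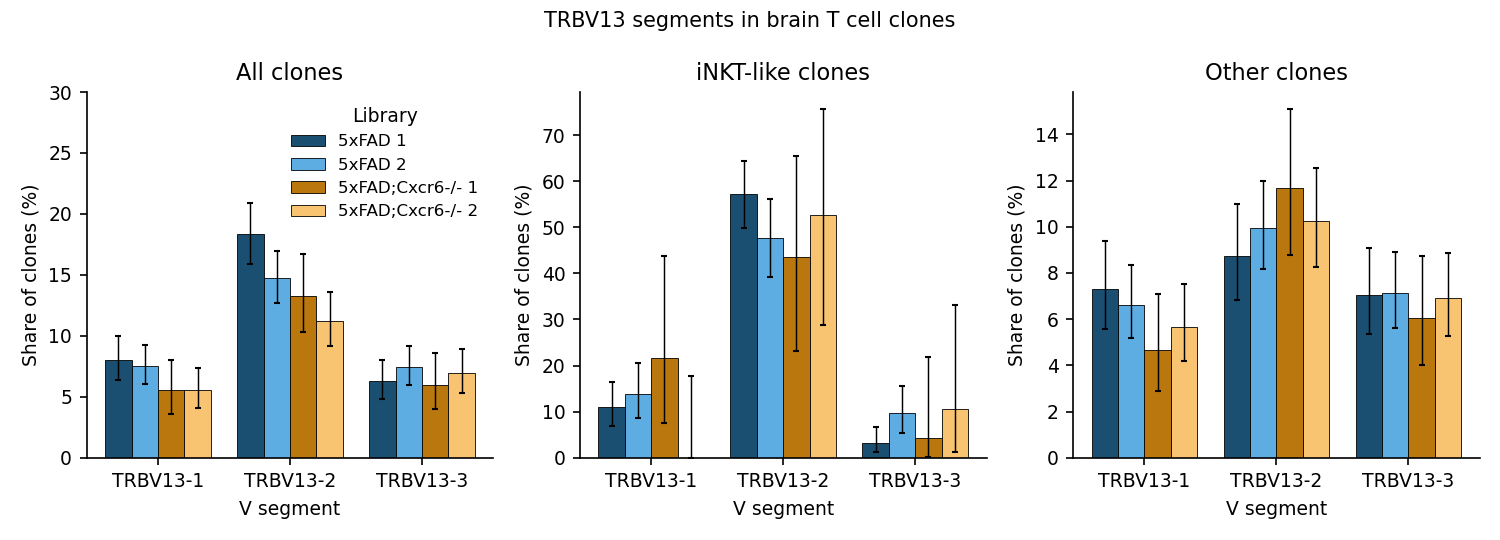
Share of clones (%) that used TRBV13-1, TRBV13-2 and TRBV13-3 in each of the 4 libraries, for all clones, iNKT-like clones and other clones, with bars from 0 and exact 95% binomial intervals that cover counting error only. TRBV13-2 stands at 43.5% to 57.1% of iNKT-like clones and at 8.75% to 11.7% of other clones.

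The second question was how the members divided between iNKT-like and other clones. TRBV13-2 held 108 of 189, 69 of 145, 10 of 23 and 10 of 19 iNKT-like clones, or 57.1%, 47.6%, 43.5% and 52.6%. Against its 10.1% ± 1.19 of other clones the mean of 50.2% ± 5.95 (SD, n = 4 libraries) was higher in 4 of 4 libraries, by 40.1 ± 7.04 percentage points. The two-sided exact sign-flip p was 0.125, the smallest that 4 libraries can give. In edgeR's quasi-likelihood test over TRBV segments, with the library as a block, TRBV13-2 rose in iNKT-like clones with a log2 fold change of 2.40 (SE 0.195, adjusted p = 4.9e-17).

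TRBV13-1 held 21, 20, 5 and 0 iNKT-like clones, or 11.1%, 13.8%, 21.7% and 0%, where 0 of 19 clones allows a share of up to 15.8%. Its mean of 11.7% compared with 6.07% of other clones and was higher in 3 of 4 libraries (exact sign-flip p = 0.375). By edgeR TRBV13-1 rose with a log2 fold change of 0.87 (SE 0.282, adjusted p = 0.00457), but this call did not hold in DESeq2 (0.89, adjusted p = 0.129) or without 5xFAD library 2 (0.74, edgeR adjusted p = 0.117). TMM scaling lowered all 3 members together, to -0.80 for TRBV13-1 (adjusted p = 0.00633), 0.67 for TRBV13-2 and -1.83 for TRBV13-3 (adjusted p = 3.42e-07), so that the sign for TRBV13-1 depended on the scaling.

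TRBV13-3 held 6, 14, 1 and 2 iNKT-like clones, or 3.17%, 9.66%, 4.35% and 10.5%. Its mean of 6.93% compared with 6.79% of other clones, with the iNKT-like share higher in 2 of 4 libraries (exact sign-flip p = 1). The edgeR log2 fold change was -0.16 (SE 0.340, adjusted p = 0.635).

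The background of this comparison was high: 17 of 21 TRBV segments passed (81.0%), 4 higher and 13 lower in iNKT-like clones, with a median log2 fold change of -3.31 that TMM scaling moved to -4.62. The 2 segments outside the family that rose were TRBV29, at 1.40 (SE 0.282, adjusted p = 1.53e-05), and TRBV1, at 0.84 (SE 0.311, adjusted p = 0.0119). TRBV29 and TRBV1 are the Vbeta7 and Vbeta2 chains, also known partners of the invariant alpha chain. Both labels of TRBV13-2 rose when counted apart, the joined label by 2.51 (SE 0.272, edgeR adjusted p = 3.78e-12) and the plain label by 1.48 (edgeR adjusted p = 0.00253).

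Together the family supplied 71.4%, 71.0%, 69.6% and 63.2% of iNKT-like clones. The genotype groups differed in how many iNKT-like clones there were, whereas the difference in TRBV13-2 excess between genotypes was not significant. It was 2.48 (SE 0.278) on the log2 scale in 5xFAD and 2.12 (SE 0.547) in the knockout libraries. The interaction was -0.36 (SE 0.544, unadjusted p = 0.517 in edgeR), with 0 of 21 segments called and 0 at an unadjusted p under 0.05. With 23 and 19 iNKT-like clones in the knockout libraries a moderate difference in TRBV13 use was not detectable at this depth.

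Read from the side of the segment, iNKT-like clones made up 61.7% and 41.1% of TRBV13-2 clones in 5xFAD and 16.7% and 10.8% in the knockout libraries. For TRBV13-1 they made up 27.3% and 23.3% against 20% and 0%. For TRBV13-3 the values were 10% and 16.5% against 3.70% and 3.45%, and for all other TRBV 8.40% and 5.24% against 2.06% and 1.11%. For each of these the 5xFAD libraries were above the knockout libraries, and TRBV13-2 in 5xFAD library 1 was the only case where iNKT-like clones were the majority.

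**Figure D2:**
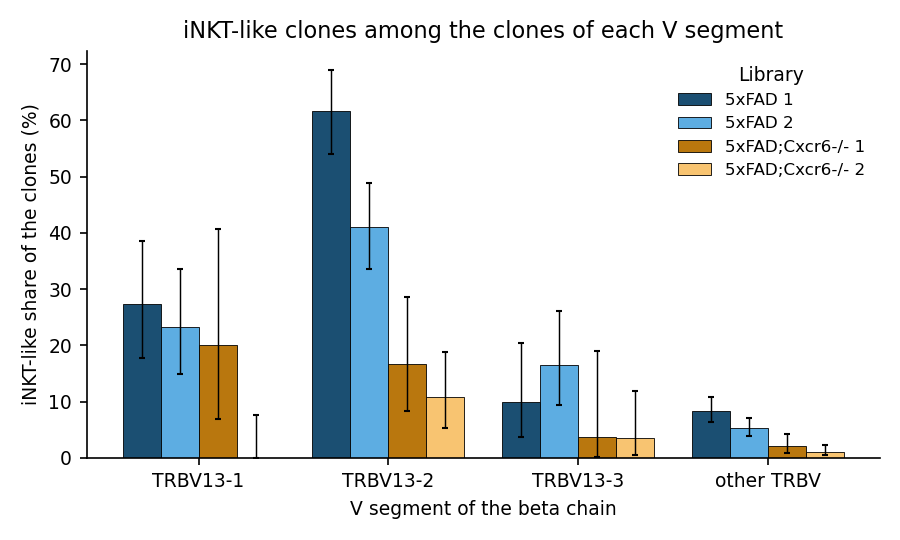
Share (%) of the clones of each beta chain V segment that were iNKT-like, by library, with exact 95% binomial intervals that cover counting error only. For TRBV13-2 the share runs from 61.7% in 5xFAD library 1 to 10.8% in the second 5xFAD;Cxcr6-/- library.

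The TRA CDR3 nucleotide sequence below, from the cysteine codon to the phenylalanine codon, is shown because it alone was present in 132 of 376 iNKT-like clones (18 of 46 with TRBV13-1, 63 of 197 with TRBV13-2, 14 of 23 with TRBV13-3 and 37 of 110 with another TRBV), with no base marked:
commonest TRAV11 TRAJ18 CDR3: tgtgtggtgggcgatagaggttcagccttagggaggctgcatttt
Its amino-acid translation, reached by several nucleotide versions, was carried by 45 of 46 TRBV13-1, 188 of 197 TRBV13-2 and 23 of 23 TRBV13-3 iNKT-like clones, and by 101 of 110 with another TRBV. A second innate-like alpha chain is TRAV1 joined to TRAJ33, as in mucosal-associated invariant T cells. Its clones numbered 8, with 2 and 6 in the 5xFAD libraries and 0 in both knockout libraries. Of these 8, 4 used TRBV13 (3 TRBV13-3 and 1 TRBV13-2), compared with 960 of 3376 among all clones. Such small counts allow no comparison of genotypes or of TRBV13 use.

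The third question was what the joints of TRBV13 chains looked like outside iNKT-like clones. CDR3 length did not set the family apart: the mean over libraries was 13.9 residues both for TRBV13 and for other TRBV, with a difference of -0.00663 and a two-sided exact sign-flip p of 1. Within the family TRBV13-2 had the longest loops, at 14.1 residues against 13.7 for TRBV13-1 and 13.7 for TRBV13-3. These gaps of 0.410 and 0.371 residues were present in 4 of 4 libraries (exact sign-flip p = 0.125 each). A sign-flip p of 0.125 is the smallest that 4 libraries can give. None of the 96 joint comparisons made in this way could therefore pass 0.05, and 0 did. After Benjamini-Hochberg adjustment a p of 0.125 became 0.261.

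The fifth germline codon of the members, gat, places aspartate at position 5 of CDR3, counted from the cysteine. Aspartate stood there in 48.5% ± 3.22 of TRBV13 clones and 3.05% ± 1.45 of other TRBV clones (SD, n = 4 libraries). Among members it was 56.0% for TRBV13-2, 48.4% for TRBV13-1 and 36.7% for TRBV13-3. Glutamate, which needs the first 2 bases of that codon, stood there in 13.7% of TRBV13 clones and 0.494% of others. The mean net charge of the loop was -1.18 in TRBV13 clones and -0.609 in other clones, lower in 4 of 4 libraries (exact sign-flip p = 0.125). Aspartate and glutamate are acidic, and the V segments by which members were chosen supply bases for them. The charge contrast is therefore not independent of that choice, and charge outside position 5 was not tested. The start CASGD was carried by 164 of 299 TRBV13-2 clones outside the iNKT-like set and by 108 of 197 within it, a share of 54.8% in both. The start CASSD was carried by 85 of 188 TRBV13-1 clones and 65 of 207 TRBV13-3 clones.

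TRBV13-1 and TRBV13-3 end in the same 16 bases, so their trimming can be compared directly. The whole V end was present in 35.7%, 24.2%, 15% and 28.3% of TRBV13-1 clones in 5xFAD libraries 1 and 2 and knockout libraries 1 and 2, and in 3.70%, 14.1%, 11.5% and 8.93% of TRBV13-3 clones. TRBV13-3 was lower in 4 of 4 libraries, by 16.2 ± 12.4 percentage points (exact sign-flip p = 0.125), and the gap ran from 3.46 points in knockout library 1 to 32.0 in 5xFAD library 1. TRBV13-2, at 28.0% ± 3.76, was near TRBV13-1, at 25.8% ± 8.63. The mean number of V bases lost was 2.01 for TRBV13-2, 2.34 for TRBV13-1 and 3.04 for TRBV13-3, against 3.08 for other TRBV. By this measure TRBV13-3 exceeded TRBV13-1 in 3 of 4 libraries, by 0.699 ± 0.617 bases (exact sign-flip p = 0.25). The lowest difference was -0.121. These losses are minimum values, since an added base that happens to match the germline is counted as V.

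TRBV13-2 joints were also compared between iNKT-like and other clones of the same libraries. The whole V end was present in 41.7%, 31.9%, 50% and 50% of iNKT-like TRBV13-2 clones (of 108, 69, 10 and 10). In other TRBV13-2 clones it was 32.8%, 24.2%, 26% and 28.9%, so iNKT-like clones were higher in 4 of 4 libraries (exact sign-flip p = 0.125). This direction was not particular to TRBV13-2. With the libraries together it was 34.8% against 27.7% for TRBV13-1, 21.7% against 9.66% for TRBV13-3 and 31.8% against 22.9% for other TRBV. TRBV13-3 and other TRBV did not keep it in every library. A loss of exactly 3 bases was also frequent, in 41 of 197 iNKT-like against 29 of 299 other TRBV13-2 clones and in 11 of 23 iNKT-like against 46 of 207 other TRBV13-3 clones. TRBJ1 segments were joined in 46.0% of iNKT-like and 36.9% of other TRBV13-2 clones, again higher in 4 of 4 libraries. This too was not particular to TRBV13-2: with the libraries together, TRBV13-1, TRBV13-3 and other TRBV had the same direction. A second TRA chain was present in 3.79% and 11.8%, lower in 4 of 4 libraries (exact sign-flip p = 0.125).

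**Figure D3:**
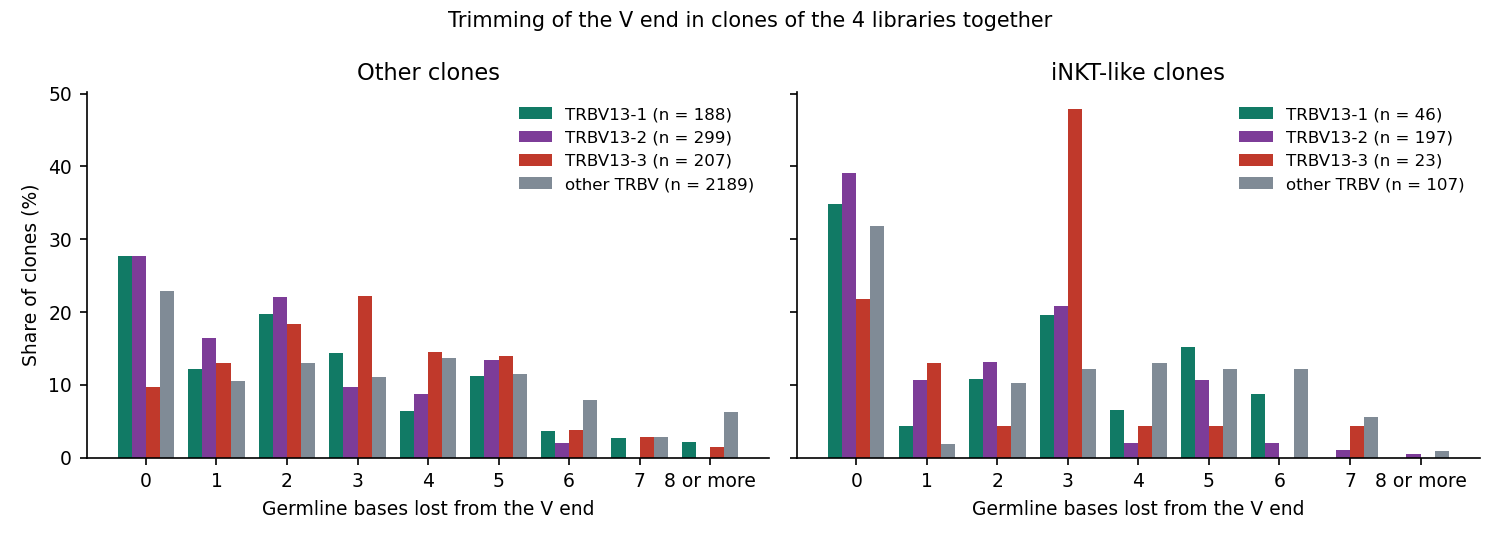
Share of clones (%) by the number of germline bases lost from the V end, for each TRBV13 member and all other TRBV, in other clones and in iNKT-like clones of the 4 libraries together, with no error bars. Other TRBV covers the 2189 of 2306 other clones whose germline V end could be read. TRBV13-3 is lowest at 0 bases lost among other clones, at 9.66%, against 27.7% for TRBV13-1 and 27.8% for TRBV13-2.

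Outside iNKT-like clones, TRBJ2-7 was joined in 23.6% ± 1.68 of TRBV13 and 21.6% ± 1.86 of other TRBV clones (SD, n = 4 libraries). TRBJ2-1 followed with 11.0% and 10.9%, and TRBJ2-5 with 10.3% and 11.1%. TRBJ1-1, the second among other TRBV clones at 11.9%, was the fourth among TRBV13 clones at 10.0%. In iNKT-like TRBV13-2 clones of the 4 libraries together, TRBJ2-5 was joined in 30 of 197 and TRBJ2-7 in 26 of 197, but in 5xFAD library 1 TRBJ2-7 was ahead, with 18 of 108 against 14. Knockout libraries 1 and 2 held 10 such clones each, with TRBJ1-3 most frequent in the first (3 clones) and TRBJ2-4 in the other (4 clones). TRBJ2-7 was joined in 64 of 299 other TRBV13-2 clones. TRBJ1-6 was joined in 15 of 299 other TRBV13-2 clones and in 0 of 197 iNKT-like ones, which allows a share of up to 1.52%.

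Alpha partners did not set the family apart by the tests made. The commonest TRAV with TRBV13 were TRAV6-6 at 4.79% (4.96% with other TRBV), TRAV12-2 at 4.57% (3.98%) and TRAV16N at 4.34% (3.45%). TRAV9D-3 followed with 3.64% (2.79%) and TRAV3D-3 with 3.49% (3.51%). The commonest TRAJ were TRAJ22 at 8.45% (6.78%), TRAJ31 at 5.77% (4.96%) and TRAJ30 at 5.31% (4.23%). Many TRAV segments have near-identical copies, so that their assignment in the deposited annotation is uncertain.

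Of 130 D, J and alpha segments compared between TRBV13 and other TRBV clones, 0 passed in edgeR (0%), with 12 at an unadjusted p under 0.05, and 0 passed in DESeq2, with 0 at that level. The smallest edgeR p-values belonged to TRAV13-1, at a log2 fold change of -1.16 (2.22% with TRBV13 and 4.59% with other TRBV, adjusted p = 0.231), and to TRAV14-1, at 1.19 (3.23% and 1.32%, adjusted p = 0.346). TRAJ32 at -1.11 (1.68% and 3.75%), TRAJ26 at -0.86 (2.37% and 4.94%), TRAJ9 at 0.75 (3.79% and 2.42%) and TRBD2 at 0.48 (11.1% and 7.07%) came next. Taken member by member, 0 of 129 passed for TRBV13-1, 0 of 129 for TRBV13-2 and 0 of 128 for TRBV13-3 (0% each by edgeR), with 3, 9 and 0 at an unadjusted p under 0.05. For TRBV13-2, TRAV13-1 stood at -1.83 (1.38% against 4.59%, adjusted p = 0.223) and TRBJ1-6 at 1.18 (5.45% against 2.13%, adjusted p = 0.297). For TRBV13-1, TRBJ2-7 was joined in 28.4% against 21.6% (log2 fold change 0.38, SE 0.103, edgeR unadjusted p = 0.0749, adjusted p = 0.991).

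The fourth question was clonal expansion, taken as 2 or more cells with the same receptor. Outside iNKT-like clones 11.9% and 15.7% of TRBV13 clones were expanded in 5xFAD and 14.6% and 10.8% in the knockout libraries. For other TRBV the values were 14.1% and 20.3% against 11.4% and 9.92%. Across the libraries in the same order, TRBV13-1 had 14.3%, 18.2%, 10% and 10.9% of its clones expanded, TRBV13-2 8.96%, 13.1%, 12% and 14.5%, and TRBV13-3 13.0%, 16.9%, 23.1% and 5.36%. No member was above the others in every library.

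In edgeR's test of expanded against single clones, with the library as a block, the log2 fold changes were -0.022 (SE 0.308), -0.23 (SE 0.256) and -0.10 (SE 0.298) for TRBV13-1, TRBV13-2 and TRBV13-3. Their adjusted p-values were 0.981, 0.871 and 0.960. Of 149 segments 1 passed (0.671%), TRBV20, with 9 at an unadjusted p under 0.05. In 5xFAD the value of TRBV13-2 was -0.66 (SE 0.376) and in the knockout libraries 0.36 (SE 0.424). The difference of 1.01 (SE 0.577) had an unadjusted p of 0.0797 and an adjusted p of 1 by edgeR. TRBV13-2 formed 6 of 104 and 13 of 191 expanded clones in 5xFAD, or 5.77% and 6.81%. In the knockout libraries it formed 6 of 52 and 12 of 82, or 11.5% and 14.6%. These groups did not overlap (exact permutation p = 0.333, the smallest possible), but the counts are small. How many other segments separated the genotypes among expanded clones was not counted, so a genotype difference particular to TRBV13-2 was not shown. The plain TRBV13-2 label was nearly absent from expanded clones, with 0 of 104, 0 of 191, 0 of 52 and 1 of 82, where a clone with both labels took that of most of its cells.

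Because larger samples catch more cells of a clone, each library was thinned to 567 cells, the size of the smallest, in 1000 draws. The share of TRBV13 cells in expanded clones was then 31.2% and 24.5% in 5xFAD and 39.7% and 23.4% in the knockout libraries. The means of 27.8% ± 4.76 and 31.5% ± 11.6 differed by 3.70 points (exact permutation p = 1), and without knockout library 1 the difference was -4.47. Cells of other TRBV gave 44.5% and 43.4% in 5xFAD, and 27.7% and 23.4% in the knockout libraries, without overlap (difference -18.4, exact permutation p = 0.333). Within each 5xFAD library the share of TRBV13 cells lay below that of the other cells, by 13.3 and 18.9 points. In the knockout libraries it lay 12.0 and 0.0124 points above. The sign-flip test over the 4 libraries gave an exact p of 0.5. Before thinning, the TRBV13 shares were 39.1%, 39.3%, 39.7% and 30.1%. Single large clones weigh on such shares. Before thinning the largest clone of other TRBV held 189 of 1059 cells in 5xFAD library 1 and 68 of 1400 in 5xFAD library 2. The largest TRBV13 clone held 23 of 256 and 14 of 328 cells. The 5xFAD gaps without these clones were not tested.

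**Figure D4:**
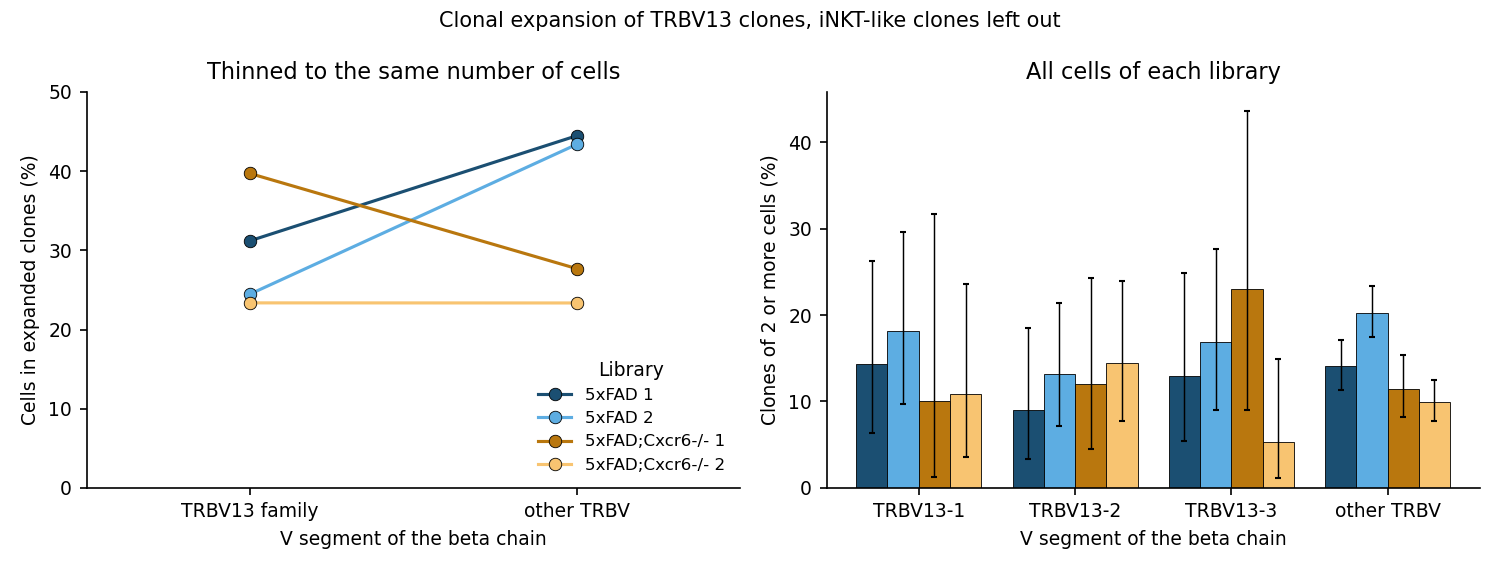
Left, share of cells (%) in clones of 2 or more cells after thinning every library to 567 cells, for TRBV13 and other TRBV, 1 line per library, iNKT-like cells left out. Right, share of clones (%) of 2 or more cells by V segment without thinning, with exact 95% binomial intervals. The 2 5xFAD lines run upward from TRBV13 to other TRBV, to 44.5% and 43.4%, and those of the knockout libraries run downward or level. A single clone, of 189 cells before thinning, enters the other TRBV value of 5xFAD library 1.

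The largest TRBV13 clone outside the iNKT-like set held 23, 14, 12 and 17 cells in 5xFAD libraries 1 and 2 and knockout libraries 1 and 2, and the largest of any other TRBV 189, 68, 10 and 26. The leading CDR3 of each library is given from the cysteine to the phenylalanine codon, with the retained V bases in capitals, to show that the largest clones kept the V end to different degrees:
5xFAD library 1, TRBV13-1, 23 cells: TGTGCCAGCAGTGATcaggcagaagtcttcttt
5xFAD library 2, TRBV13-3, 14 cells: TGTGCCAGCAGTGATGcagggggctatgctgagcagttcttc
5xFAD;Cxcr6-/- library 1, TRBV13-2, 12 cells: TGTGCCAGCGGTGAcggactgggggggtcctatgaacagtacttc
5xFAD;Cxcr6-/- library 2, TRBV13-2, 17 cells: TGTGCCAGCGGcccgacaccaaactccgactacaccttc
largest iNKT-like clone, 5xFAD library 1, TRBV13-2, 10 cells: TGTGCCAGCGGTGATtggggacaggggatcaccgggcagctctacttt
The first of these, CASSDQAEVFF with TRBJ1-1, was paired with TRAV10 and TRAJ42 and made up 1.51% of the usable cells of its library. It lost 1 V base. The second, with TRBJ2-1, kept its whole V end. The leading clone of knockout library 1 made up 2.12% of its cells and had TRBJ2-7. That of knockout library 2, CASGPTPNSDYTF with TRBJ1-2, had lost 5 V bases and made up 1.63%. Different members led in different libraries, and 2 of the 4 leading clones were TRBV13-2, both in the knockout libraries.

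Behind them in 5xFAD library 1 came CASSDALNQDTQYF (TRBV13-1, 14 cells) and the iNKT-like clone shown, and in 5xFAD library 2 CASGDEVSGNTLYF (TRBV13-2, 9 cells) and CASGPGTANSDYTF (TRBV13-2, 8 cells). In knockout library 1 the next clone was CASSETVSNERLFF (TRBV13-3, 8 cells), ahead of 3 clones of 4 cells, and in knockout library 2 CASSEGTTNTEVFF (TRBV13-1, 15 cells), ahead of clones of 3 cells. The second iNKT-like clone of the series, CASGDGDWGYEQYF, held 7 cells in 5xFAD library 1. Expanded iNKT-like clones of any TRBV numbered 9 of 189 and 7 of 145 in 5xFAD and 0 of 23 and 0 of 19 in the knockout libraries. With so few iNKT-like clones in the knockout libraries, a lower rate of expansion there was not shown.

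TRBV13 receptors were nearly all private to a library. Of 950 distinct TRBV13 CDR3 amino-acid sequences 5 were found in 2 libraries and 0 in 3 or more, which is 0.526%. Of 2384 with other TRBV, 10 were found in 2 libraries and 1 in 3 or more, or 0.461%.

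The number of transcripts recovered per chain is given for each member, since it bears on which cells enter the clones. The mean UMI count per TRB chain was 13.6 in TRBV13-1, 11.5 in TRBV13-3, 10.1 in TRBV13-2 and 11.3 in other TRBV clones outside the iNKT-like set. TRBV13-2 was below other TRBV in 4 of 4 libraries, by 1.22 UMIs, and TRBV13-1 above in 4 of 4, by 2.26 (exact sign-flip p = 0.125 for each). TRBV13 contigs lacked a TRA chain more often than other TRB contigs, by 3.76 percentage points, in 4 of 4 libraries (exact sign-flip p = 0.125). The difference ran from 1.59 to 8.99 points, and single members did not all follow it. TRBV13-2 was lower in knockout library 1 (8.70% against 12.1%) and TRBV13-3 in 5xFAD library 2 (13.7% against 17.8%). TRBV13-1 was lower in knockout library 2 (12.5% against 14.6%), and in the remaining libraries each member was higher. Cells without a TRA chain were left out of the clones, and their part in the shares was not tested.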

How the data were processed

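Libraries were made with a Chromium single-cell immune profiling kit of 10x Genomics, per the labels' protocols. The submitters' processing notes name Cell Ranger 6.0 and mm10, and the receptor reference is not given in the sources used here. The authors deposited, for each library, assembled contigs with raw read counts and UMI counts per contig and the V, D, J, CDR and CDR3 calls. Only productive contigs were used (3905, 4778, 1525 and 2584). The 4 GEX (gene expression) samples are not analysed here.

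Cells with 1 TRB and 1 or 2 TRA were kept. Clones shared TRB and a TRA by V, J and CDR3 nucleotides, and each clone counted once. Clones per segment were fitted with edgeR 4.0.16 (quasi-likelihood, log clone total as offset, segments with at least 10 clones, Benjamini-Hochberg adjusted p under 0.05) in R 4.3.3, with DESeq2 1.42.0 as an alternative. Each SE given with an edgeR value is the absolute log2 fold change divided by the square root of its quasi-likelihood F. It is not a fitted standard error, and the p-values come from the F test. The edgeR step was tested on simulated counts. Shares were compared by exact permutation with Python 3.11.15, pandas 2.3.3, numpy 2.4.6 and scipy 1.17.1, and intervals are 95% Clopper-Pearson intervals that, like the limit of 3 counts for a 0, cover counting error only. V bases were read against GENCODE vM21 transcripts.

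The text names the 4 member labels, the 3 TRBJ, 5 TRAV and 3 TRAJ most used with TRBV13, called partners and the 3 with the smallest p in each direction, the 2 other TRBV most used by iNKT-like clones, the 3 largest TRBV13 clones of each library (with ties) and the 3 largest iNKT-like ones. For single members, TRAV13-1, TRBJ1-6 and TRBJ2-7 are named, chosen after their values were seen. The members and lists were chosen with earlier results of these data known. Alternatives covered the test, scaling, filters, labels, clone definitions, chains, UMIs, cells in place of clones and each left-out library. Libraries with the same replicate number did not deviate together from their group means (Pearson r = -0.0750 over 151 segments and -0.164 over 149 without iNKT-like clones), so the genotype fits have no block.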

Additional observations from a re-analysis of the deposited data

Results flagged for a closer look

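Over 12 contrasts read in each genotype, 3 had both 5xFAD libraries on one side of 0 and both 5xFAD;Cxcr6-/- libraries on the other. In each the exact permutation p was 0.333, the smallest that 2 libraries against 2 can give, so a difference between genotypes was not shown by a test. The contrasts draw on the same clones and are not independent, and the flagged cell share and clone share below both measure expansion. How many contrasts random signs alone would flag was not worked out.

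The share of cells in expanded clones, TRBV13 minus other TRBV and thinned to 567 cells, was -13.3 and -18.9 percentage points in 5xFAD and 12.0 and 0.0124 in the knockout libraries, a difference of 22.1. The value of 0.0124 is close to 0, and a single clone, of 189 cells before thinning, enters the other TRBV share of 5xFAD library 1. The TRBV13 share of expanded minus that of single clones outside the iNKT-like set was -3.37 and -5.38 points against 5.17 and 1.73, a difference of 7.82. UMIs per TRB chain, TRBV13 minus other TRBV, were 0.254 and 0.404 against -0.00713 and -0.447, a difference of -0.556. The number of usable cells also separated the genotypes, at 1527 and 1885 against 567 and 1046, and its part in these differences was not tested beyond the thinning.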

How the results depend on the processing

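The member counts of the genotype tests (0 in all clones and 0 without iNKT-like clones) and of the expansion test (0) were the same in each of their alternatives, including the replicate block (0 in both genotype tests) and a crossed block, chosen after seeing the data (0). The 2 members called in iNKT-like clones became 1 in DESeq2, 1 when called in each genotype by the interaction model, and 1 to 2 when each library was left out in turn. They became 3 under TMM scaling, with TRBV13-1 and TRBV13-3 lower, and 3 with the joined label counted apart. The 0 partners called became 1 with cells of 1 TRA only (TRAV14-2) and 2 over all clones (TRAV11 and TRAJ18). The genotype difference in family share, -6.93 points, turned to 0.269 over usable cells and ran from -8.40 to -5.47 when a library was left out. The thinned expansion difference of 3.70 turned to -4.30 without thinning and ran from -4.47, without knockout library 1, to 11.9. The CDR3 length difference of -0.00663 turned to 0.0538 over all clones and ran from -0.0330 to 0.0383, the last without knockout library 2. Log2 fold changes by genotype with cells counted turned to 0.066 for TRBV13-2 and 0.21 for TRBV13-3, and to 0.20 for TRBV13-3 without iNKT-like clones, where TRBV13-2 moved from 0.19 to 0.77. The value of -0.45 for TRBV13-2 was -0.28 without 5xFAD library 1. With a library left out, TRBV13-3 ran from -0.21 to 0.065 by genotype, from -0.77 to 0.38 in iNKT-like clones and from -0.32 to 0.077 in expanded clones. TRBV13-1 and TRBV13-2 in expanded clones ran from -0.066 to 0.035 and from -0.52 to 0.030. With 1 TRA only, expansion values turned to 0.062 for TRBV13-1 and 0.097 for TRBV13-3, and TMM scaling turned TRBV13-1 in iNKT-like clones to -0.80. The UMI difference of 0.0511 turned to -0.281 by cells and -0.346 over all clones, and ran from -0.0667 to 0.217. The second TRA difference of -0.321 points turned to 0.887 by cells and ran from -0.664 to 0.445. Counting the joined label apart leaves the partner test as it is and was not run for it. The cause of these changes was not tested. A genotype fit without 1 library leaves 1 sample in a group, whose spread is assumed to be that of the other. Few iNKT-like clones in the knockout libraries limit every statement on them.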

Other observations

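The following values were picked after they were seen. A TRBV13-2 chain, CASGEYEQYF with TRBJ2-7 and the nucleotide CDR3 tgtgccagcggtgaatatgaacagtacttc, was present in 1 cell of 5xFAD library 2 and 1 cell of knockout library 2. Both cells had TRAV14D-3-DV8 joined to TRAJ16, with the alpha CDR3s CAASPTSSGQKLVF and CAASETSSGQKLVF, which differ by P5E (position 5 from the cysteine, 5xFAD first) and by 2 bases. Of 3376 clones 3 had this TRAV and TRAJ, and 2 of the 3 were these. The cells had different barcodes, and each alpha chain rested on 2 UMIs.

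TRAJ22 was paired with 3 of 16 TRBV13 clones of 5 or more cells and with 51 of 602 single-cell TRBV13 clones (8.47%). The 3 were the leading clones of both knockout libraries and the second of knockout library 2, and 0 of 12 such clones in 5xFAD had it.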
